A study of Mus musculus with 6 samples.

Results

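The mitochondrial ribosomal protein genes were examined in mouse T cells that the submitters describe as differentiated in culture into induced regulatory T (Treg) cells. Members were all genes of the expression table whose symbol is Mrpl (large subunit) or Mrps (small subunit) followed by a digit, pseudogene symbols left out, which gave 78 of 24493 genes, 49 Mrpl and 29 Mrps. Splenic naive CD4 T cells were the source of every culture. The comparison was between 3 WT libraries and 3 libraries of the genotype Ifnar1-SA, with no further treatment, age or allele named in the labels. In published work the SA allele is a knock-in of the type I interferon receptor chain Ifnar1 in which a serine needed for its degradation is replaced by alanine. Nothing in the labels ties the 3 libraries of a genotype to different mice or cultures, so the p-values reflect the spread among the libraries at hand, which may be technical.

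Mitochondria keep ribosomes of their own, which translate the few oxidative phosphorylation subunits encoded in mitochondrial DNA. Their RNAs come from the mitochondrial genome, but every protein of these ribosomes is encoded in the nucleus, made in the cytosol and imported. Some of the proteins descend from bacterial ribosomal proteins, and others are found only in mitochondrial ribosomes. Activated T cells enlarge their mitochondria and depend on mitochondrial translation to proliferate and to make cytokines, and the large and small subunits are needed in matching amounts.

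Cells were T cells by their transcripts, with Cd3e at 90.3 to 123 TPM (a length-corrected transcript share that sums to 1000000 in each library) and Cd4 at 108 to 124 TPM. Of the 7 T cell genes tested, 6 were higher in Ifnar1-SA and 1, Cd3e, was lower, with a median log2 difference of 0.20. Libraries did not overlap for 3 of them, Cd3d, Cd3g and Zap70, all higher in Ifnar1-SA, against 1.97% of all genes. At a limma unadjusted p under 0.05 the T cell genes numbered 0. Of the Treg markers, Il2ra stood at 359 to 444 TPM, Ctla4 at 482 to 876, Tnfrsf18 at 2371 to 3238 and Il10 at 135 to 344 TPM. Ikzf2, Lrrc32 and Itgae were low, between 0.669 and 2.73 TPM. Ctla4 and Il10 were higher in Ifnar1-SA without overlap (0.50 and 0.72, limma unadjusted p 0.026 and 0.019, adjusted p 0.9997 for both). Foxp3, the defining factor of Treg cells, was at 0.276 to 0.697 TPM in WT and 0.746 to 1.82 TPM in Ifnar1-SA, without overlap, and its mean was below the 1 TPM needed for testing. So low a level goes against the Treg label, which is kept here only as the submitters' name for the cells. Markers of CD8 T and natural killer cells summed to 51.5 to 60.3 TPM in WT and 83.7 to 130 TPM in Ifnar1-SA, with 5 of the 9 markers under 1 TPM in every library and Gzma the main contributor. The neutrophil and mast cell list summed to 7.34 to 10.7 TPM in WT and 17.2 to 22.6 TPM in Ifnar1-SA. That gap lay in Ly6g alone, at 6.46 to 6.55 TPM in WT and 14.2 to 21.4 TPM in Ifnar1-SA, while the other members of the list, S100a8, S100a9, Elane, Mpo, Cpa3 and Mcpt4, overlapped between the genotypes. The part of these markers in the values below was not tested. Libraries correlated across genes at 0.944 to 0.961 within a genotype and at 0.939 to 0.966 between genotypes (Pearson's r of log2 values), so the genotypes did not separate.

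All 78 members were expressed in every library. The lowest value of any member in any library was 7.07 TPM, for Mrpl50 in WT 3, and all 78 passed the filter of a mean of at least 1 TPM that left 12141 genes for testing. Averaged over the 6 libraries, the members' median level was 82.4 TPM, against 8.52 TPM for all genes tested, and it lay above 88.8% of those genes. Although 1 copy of most of these proteins sits in each ribosome, their transcript levels spanned 46.3-fold, from 8.75 TPM (Mrpl50) to 405 TPM (Mrps21). The median was 70.3 TPM for Mrpl and 91.5 TPM for Mrps genes. Members of bacterial families had a median of 89.4 TPM and those specific to mitochondria 54.6 TPM. This split follows the family names of the proteins, which place Mrps18a and Mrps18b with the mitochondria-specific group despite the bacterial origin described below.

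**Figure D1:**
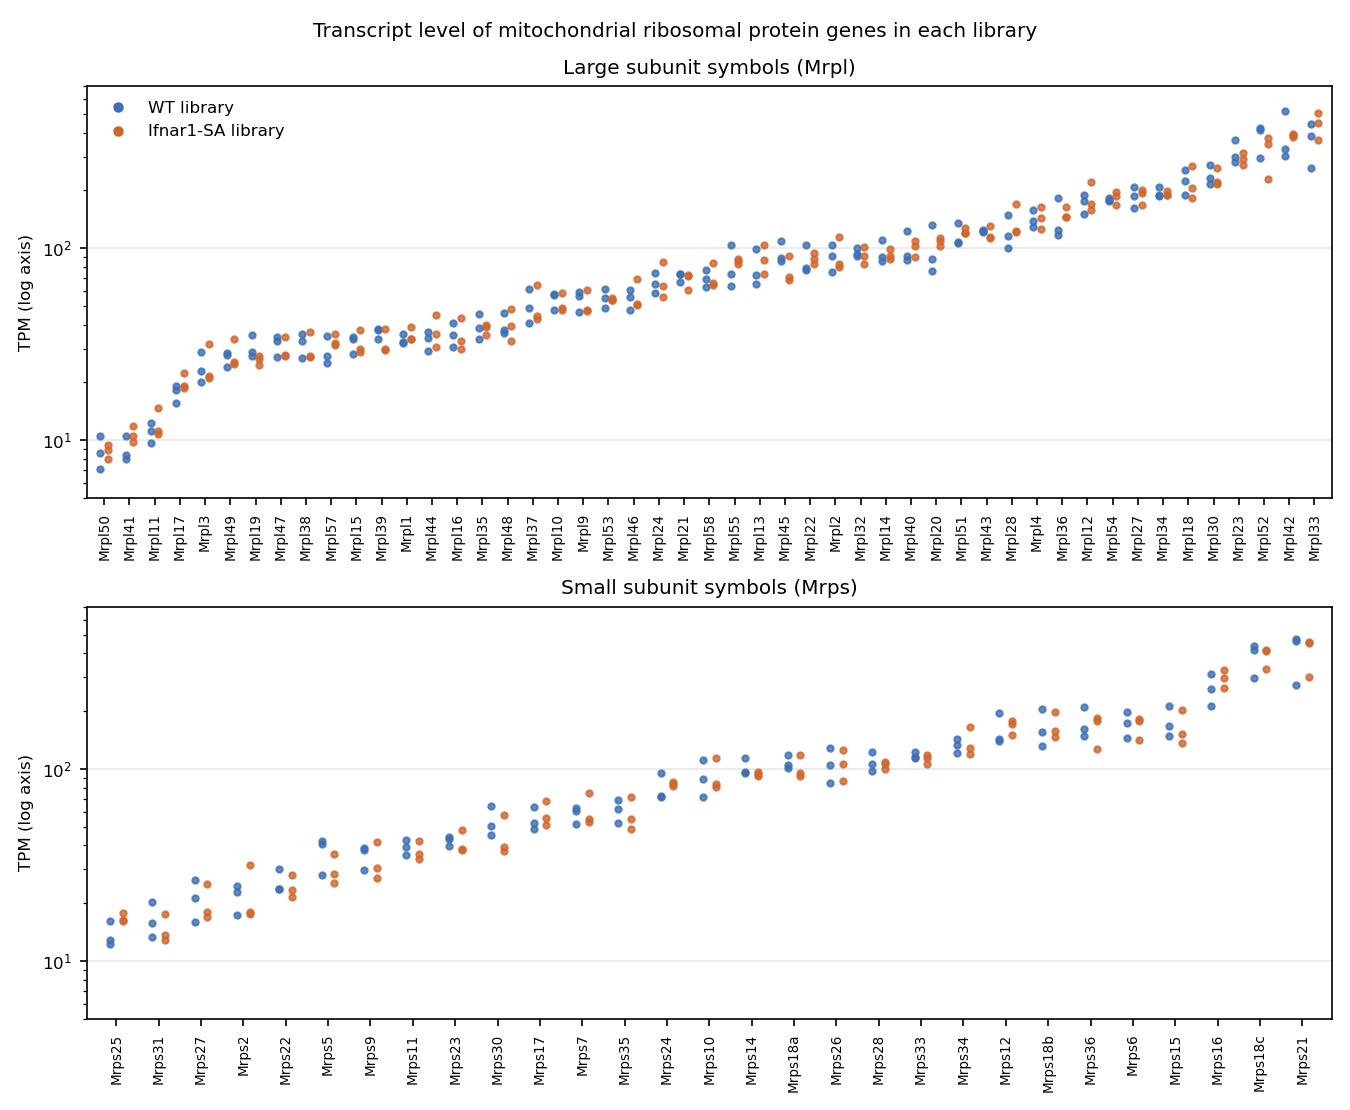
Level of each mitochondrial ribosomal protein gene in the 6 libraries, in TPM on a log axis, members ordered by mean level within Mrpl and Mrps symbols; points are single libraries, coloured by genotype. Levels run from 7.07 TPM upwards, and WT and Ifnar1-SA points are intermixed along the whole range.

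The 2 most abundant Mrpl transcripts were Mrpl33, a small protein of a bacterial family, and Mrpl42, a protein specific to mitochondria, and the 2 most abundant Mrps transcripts were Mrps21 and Mrps18c, both of bacterial families. Mrps21 (chromosome 3, 95862634 to 95871519, minus strand, GRCm38) stood at 463, 274 and 477 TPM in WT 1 to 3 and at 300.2, 453 and 461 TPM in Ifnar1-SA 1 to 3. In both genotypes 1 library was low, WT 2 and Ifnar1-SA 1, and the genotypes overlapped. Mrpl42 stood at 516, 301 and 330 TPM in the WT libraries, against 387, 394 and 380 TPM in Ifnar1-SA. Its WT libraries enclosed all 3 Ifnar1-SA libraries. At the other end, Mrpl50, specific to mitochondria, stood at 10.6, 8.61 and 7.07 TPM in the WT libraries, against 9.4, 8.87 and 7.99 TPM in Ifnar1-SA, again with the Ifnar1-SA libraries inside the range of WT.

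The genes were scattered over the genome, with coding sequences shorter than is usual and, for a minority, a start close to that of a gene on the opposite strand. All 78 matched 1 coding gene by symbol in GENCODE M21 (GRCm38), on 17 chromosomes, with 11 on chromosome 11, 8 on chromosome 17 and 7 on chromosome 6. Their median coding length was 582 bases, against 1272 bases for all genes tested, and across the 78 members a longer coding sequence went with a lower TPM (Spearman's rho −0.51, across genes, which share the same 6 libraries and are not independent). A coding gene started on the opposite strand within 1000 bases for 18 of 78 members (23.1%), against 1170 of 10390 genes tested (11.3%). Such partners included Sars2, the mitochondrial seryl-tRNA synthetase, which starts 172 bases from Mrps12, and Ptcd2, a mitochondrial RNA-binding protein, which starts 81 bases from Mrps27. A pair of members even overlapped head to head on chromosome 7, Mrpl46 (78775236 to 78783531, minus strand) and Mrps11 (78783119 to 78792989, plus strand). Sars2 itself stood at 11.3, 10.9 and 7.63 TPM in the WT libraries, against 13.6, 9.64 and 8.99 TPM in Ifnar1-SA, more than 10 times below Mrps12 on the same per-length scale.

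Promoter letters of 3 factors known from nuclear genes for mitochondrial proteins were common in these genes. The letters searched, on both strands, were GCGCATGCG for NRF1, CCGGAAG for ETS factors such as GABPA (also called NRF-2) and AAGATGGC for YY1, in RefSeq windows (GRCm38.p6) of 250 bases before to 50 bases after the start. Of the 69 members with a RefSeq promoter, 26 (37.7%) held the ETS letters, against 21.3% of 8918 genes tested and 9.93% of all 27025 promoters. The YY1 letters were in 12 (17.4%), against 5.73% and 3.19%, and the NRF1 letters were in 7 (10.1%), against 4.32% and 1.95%. Letters of at least 1 factor were in 38 members (55.1%; 28.7% of genes tested), and of 2 or more in 7 (10.1%; 2.59% of genes tested). A match of letters is a description of the sequence and not a bound site. Of those 7, the 4 below also have a coding gene starting on the opposite strand within 1000 bases; they are shown because they hold letters of 2 factors and a paired start in 1 window. Each is written 5′ to 3′ on its gene's strand, with matches in either direction in capitals; letters of different factors overlapped in 0 of the members' promoter windows.
Mrps12, chr7:28741772-28742071, minus strand, YY1 then ETS, partner Sars2: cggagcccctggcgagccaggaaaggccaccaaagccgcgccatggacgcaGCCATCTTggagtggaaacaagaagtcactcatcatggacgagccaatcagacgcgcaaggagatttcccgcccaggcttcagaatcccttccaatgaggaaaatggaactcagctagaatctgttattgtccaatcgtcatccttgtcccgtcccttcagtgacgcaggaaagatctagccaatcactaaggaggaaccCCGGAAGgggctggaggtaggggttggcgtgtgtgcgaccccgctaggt
Mrpl32, chr13:14612988-14613287, minus strand, YY1 then NRF1 at 2 places, partner Psma2: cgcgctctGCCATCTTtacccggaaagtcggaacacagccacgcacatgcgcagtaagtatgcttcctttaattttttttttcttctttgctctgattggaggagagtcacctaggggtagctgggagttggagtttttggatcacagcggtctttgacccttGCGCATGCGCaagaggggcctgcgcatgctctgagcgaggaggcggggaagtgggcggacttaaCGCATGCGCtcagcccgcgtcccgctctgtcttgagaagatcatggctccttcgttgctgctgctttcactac
Mrps27, chr13:99344536-99344835, plus strand, ETS then YY1, partner Ptcd2: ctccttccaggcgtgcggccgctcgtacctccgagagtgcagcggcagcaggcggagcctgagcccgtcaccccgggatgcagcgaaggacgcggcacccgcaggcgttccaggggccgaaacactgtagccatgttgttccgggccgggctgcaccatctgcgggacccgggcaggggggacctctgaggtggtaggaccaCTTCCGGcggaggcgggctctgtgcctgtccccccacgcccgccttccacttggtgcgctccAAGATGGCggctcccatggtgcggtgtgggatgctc
Mrps18b, chr17:35916391-35916690, minus strand, NRF1 then ETS, partner Ppp1r10: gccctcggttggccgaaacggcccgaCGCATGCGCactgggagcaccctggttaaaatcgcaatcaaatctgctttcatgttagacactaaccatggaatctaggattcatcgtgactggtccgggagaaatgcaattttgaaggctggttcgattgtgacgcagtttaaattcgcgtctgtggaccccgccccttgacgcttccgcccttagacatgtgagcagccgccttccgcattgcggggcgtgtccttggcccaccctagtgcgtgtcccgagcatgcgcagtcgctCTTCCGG

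In Mrpl32, which encodes a large subunit protein matured by a mitochondrial protease, the NRF1 letters occur on both strands of 1 palindrome and again nearer the start. In Mrps12 and Mrps27 the letters at the start lie within the first bases of the transcript. Psma2, the partner of Mrpl32, is a proteasome subunit, and Ppp1r10, the partner of Mrps18b, is a regulatory subunit of protein phosphatase 1, so the partners were not all mitochondrial.

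Between the genotypes, no mitochondrial ribosomal protein gene passed the test for a rise or a fall. In limma, fitted over all genes, 0 of 49 Mrpl and 0 of 29 Mrps genes passed an adjusted p of 0.05, where 7 of 12141 genes did (0.0577%; 0.0165% higher and 0.0412% lower in Ifnar1-SA), all of them microRNA genes. At an unadjusted p under 0.05 the members again numbered 0, against 3.12% of all genes (1.44% higher, 1.68% lower). On the log2(TPM + 1) scale the members' differences, Ifnar1-SA minus WT, ran from −0.30 (Mrpl45) to 0.30 (Mrpl33), 43 above 0 and 35 below. The libraries of the genotypes did not overlap for 1 member, Mrps25, higher in Ifnar1-SA, and for 0 members lower, against 1.97% and 3.8% of all genes. In bulk RNA, fewer cells of a type and less RNA per cell cannot be told apart, here or in any value below.

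A p that misses the threshold does not show that levels were alike, so the 95% confidence intervals of the differences carry the information. All 78 intervals lay inside a 2-fold difference either way, as did those of 86.0% of all genes tested. Inside 1.5-fold either way lay 57 of 78 members (73.1%), 39 of 49 Mrpl and 18 of 29 Mrps genes, against 43.5% of all genes. The intervals share the same libraries and the TPM scale, so they are not independent, and they were not counted under other scalings. The members' median spread within a genotype was 0.201 (SD of log2 values), against 0.248 for all genes, which are mostly expressed at lower levels.

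**Figure D2:**
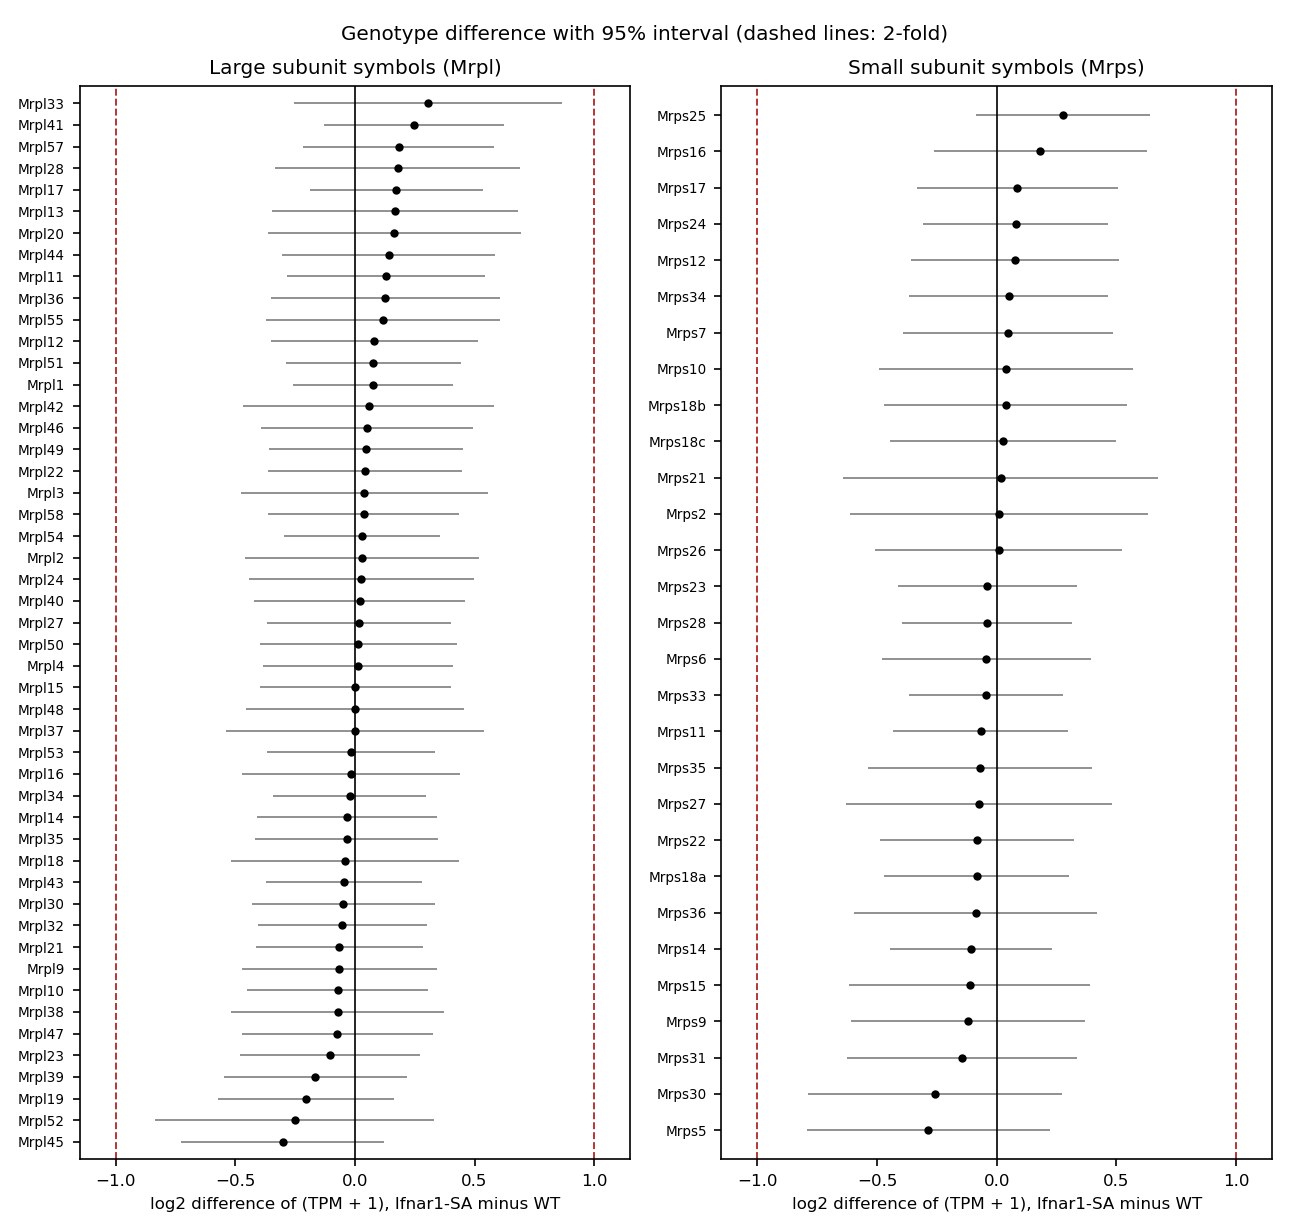
Log2 difference, Ifnar1-SA minus WT, on the log2(TPM + 1) scale for each of the 78 members with its 95% interval from limma, 3 libraries per genotype. Differences run from −0.30 to 0.30, and all 78 intervals lie inside the lines of a 2-fold difference.

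By subunit, the median difference was 0.016 for the 49 Mrpl genes (30 above 0, 19 below) and −0.040 for the 29 Mrps genes (13 above, 16 below), beside −0.056 for all genes tested. Some symbols do not name the subunit the protein sits in. Mrps30 and Mrps18a are found in the large subunit (as mL65 and mL66), and Mrps36 is known as a subunit of the 2-oxoglutarate dehydrogenase complex rather than of the ribosome. With these placed by structure, the medians were 0.014 over 51 large subunit genes and −0.016 over 26 small subunit genes. Summed over the Mrpl genes, levels were 5713, 4711 and 4713 TPM in the WT libraries, against 5342, 5082 and 4831 TPM in Ifnar1-SA. Summed over the Mrps genes they were 3584, 2949.95 and 3131 TPM in the WT libraries, against 3257, 3211 and 3171 TPM in Ifnar1-SA, so for both subunits the range of Ifnar1-SA lay inside that of WT.

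In the large subunit, the landmark genes chosen by role had differences of 0.04 to 0.14, and 0 of them passed the test. Mrpl12, the stalk protein, which recruits translation factors and has been reported to bind mitochondrial RNA polymerase, had 189, 177 and 151 TPM in the WT libraries, against 221, 170.1 and 159 TPM in Ifnar1-SA. Its highest and its second lowest library were both Ifnar1-SA, with a difference of 0.08 (SE 0.18, 95% interval −0.35 to 0.51). Mrpl11, at the base of the stalk, differed by 0.13 (SE 0.17). Mrpl3, near the peptidyl transferase centre, differed by 0.04 (SE 0.22). Mrpl36, a small protein of a bacterial family, differed by 0.13 (SE 0.20). Among the proteins specific to mitochondria, Mrpl44, of the RNase III family, differed by 0.14 (SE 0.19), and Mrpl58, a peptidyl-tRNA hydrolase built into the ribosome, by 0.04 (SE 0.17). For each of these 6 genes the Ifnar1-SA libraries overlapped those of WT.

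The lowest p among Mrpl genes belonged to Mrpl45, a protein beside the exit tunnel that anchors the ribosome to the inner membrane (chromosome 11, 97315716 to 97329920, plus strand). It stood at 88.8, 109 and 86.0 TPM in WT (94.6 ± 13, SD, n = 3) and at 90.8, 68.4 and 71.1 TPM in Ifnar1-SA (76.8 ± 12, SD, n = 3). Of the Ifnar1-SA libraries 2 lay below all of WT, and the other lay between WT 1 and WT 2. Its difference was −0.30 (SE 0.18, 95% interval −0.73 to 0.12; limma adjusted p 0.9997). Mrpl33 stood at 444, 262 and 384 TPM in the WT libraries, against 368, 508 and 451 TPM in Ifnar1-SA. Its range over the WT libraries, in which WT 2 was low, reached into that of Ifnar1-SA, with a difference of 0.30 (SE 0.24, 95% interval −0.26 to 0.86). Mrpl41, specific to mitochondria and one of the least abundant, had 10.5, 7.94 and 8.37 TPM in the WT libraries, against 11.9, 10.6 and 9.83 TPM in Ifnar1-SA. Only WT 1 among its WT libraries reached the Ifnar1-SA range, and the difference was 0.25 (SE 0.16). The remaining Mrpl genes of lowest p went both ways, Mrpl17 and Mrpl57 with differences of 0.17 and 0.18, and Mrpl19, Mrpl52 and Mrpl39 with −0.21, −0.25 and −0.17.

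In the small subunit the lowest p of all members was that of Mrps25, a protein specific to mitochondria (chromosome 6, 92169525 to 92184033, minus strand). It stood at 16.1, 12.8 and 12.3 TPM in WT (13.7 ± 2.1, SD, n = 3) and at 17.7, 16.15 and 16.4 TPM in Ifnar1-SA (16.8 ± 0.86, SD, n = 3). WT 1 and Ifnar1-SA 2 were almost level, so the separation of the genotypes is narrow. The difference was 0.28 (SE 0.15, 95% interval −0.09 to 0.64; limma unadjusted p 0.116, adjusted p 0.9997). Mrps5, near the entry of the mRNA channel in ribosomes generally, had 40.8, 42.1 and 28.1 TPM in the WT libraries, against 35.9, 28.5 and 25.6 TPM in Ifnar1-SA. These overlapped, with a difference of −0.29 (SE 0.21). Mrps16, of a bacterial family, had 314, 214 and 261 TPM in the WT libraries, against 263, 327 and 298 TPM in Ifnar1-SA, which also overlapped (0.18, SE 0.19).

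Mrps12, of the decoding centre (chromosome 7, 28739641 to 28741820, minus strand), whose promoter is printed above, stood at 196, 139.97 and 143 TPM in the WT libraries, against 178, 151 and 171 TPM in Ifnar1-SA, inside the WT range. The difference was 0.08 (SE 0.18). Mrps7, in the head of the small subunit, differed by 0.05 (SE 0.19), and the mitochondria-specific Mrps22 and Mrps34 by −0.08 and 0.05. Mrps14, Mrps31, Mrps9 and Mrps15, next in order of p, had differences of −0.11, −0.15, −0.12 and −0.11. All 4 had libraries that overlapped between the genotypes.

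The 3 paralogs Mrps18a, Mrps18b and Mrps18c, which descend from 1 bacterial protein, were expressed together at unlike levels. Mrps18c stood at 435, 296 and 419 TPM in the WT libraries, against 333, 417 and 409 TPM in Ifnar1-SA. Mrps18b stood at 206, 157 and 132 TPM in the WT libraries, against 199, 158 and 147 TPM in Ifnar1-SA. Mrps18a stood at 119, 105 and 101 TPM in the WT libraries, against 119, 92.2 and 95.5 TPM in Ifnar1-SA. In each of the 6 libraries the order was Mrps18c, then Mrps18b, then Mrps18a, with no overlap between genes. Their genotype differences were 0.03, 0.04 and −0.08. Mrps30 differed by −0.26 (SE 0.22) and Mrps36 by −0.09 (SE 0.21), both with overlapping libraries.

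Values of some members could hold reads of another gene. A coding gene overlapped on the same strand for 4 members, Mrpl53, Mrps24, Mrps34 and Mrps6, and on the opposite strand for 23, and whether quantification used strand is not given in the sources used here. Mrps6, which lies across Slc5a3 (a myo-inositol transporter), stood at 145, 173 and 199 TPM in the WT libraries, against 177, 141 and 182 TPM in Ifnar1-SA. Slc5a3 was listed at 0.868 to 1.32 TPM, far below it.

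The members' mean levels differed more between libraries of 1 genotype than between the genotypes. On the TPM scale, Ifnar1-SA 1 was the highest of the 6 libraries for 35 members and WT 1 for 26, together 61 of 78, while Ifnar1-SA 3 was highest for 0. WT 1 was the highest WT library for 56 of 78 members and Ifnar1-SA 1 the highest Ifnar1-SA library for 60. The mean log2 value of the Mrpl genes was 6.29, 6.10 and 6.01 in WT and 6.29, 6.10 and 6.05 in Ifnar1-SA, and that of the Mrps genes was 6.42, 6.26 and 6.15 in WT and 6.40, 6.20 and 6.16 in Ifnar1-SA. The place of Ifnar1-SA 1 depended on scaling: it was highest for 2 members with median-of-ratios scaling, 3 with TMM and 14 with quantile scaling, while WT 1 was highest for 62, 56 and 31. Counting under these scalings was chosen after seeing the data.

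**Figure D3:**
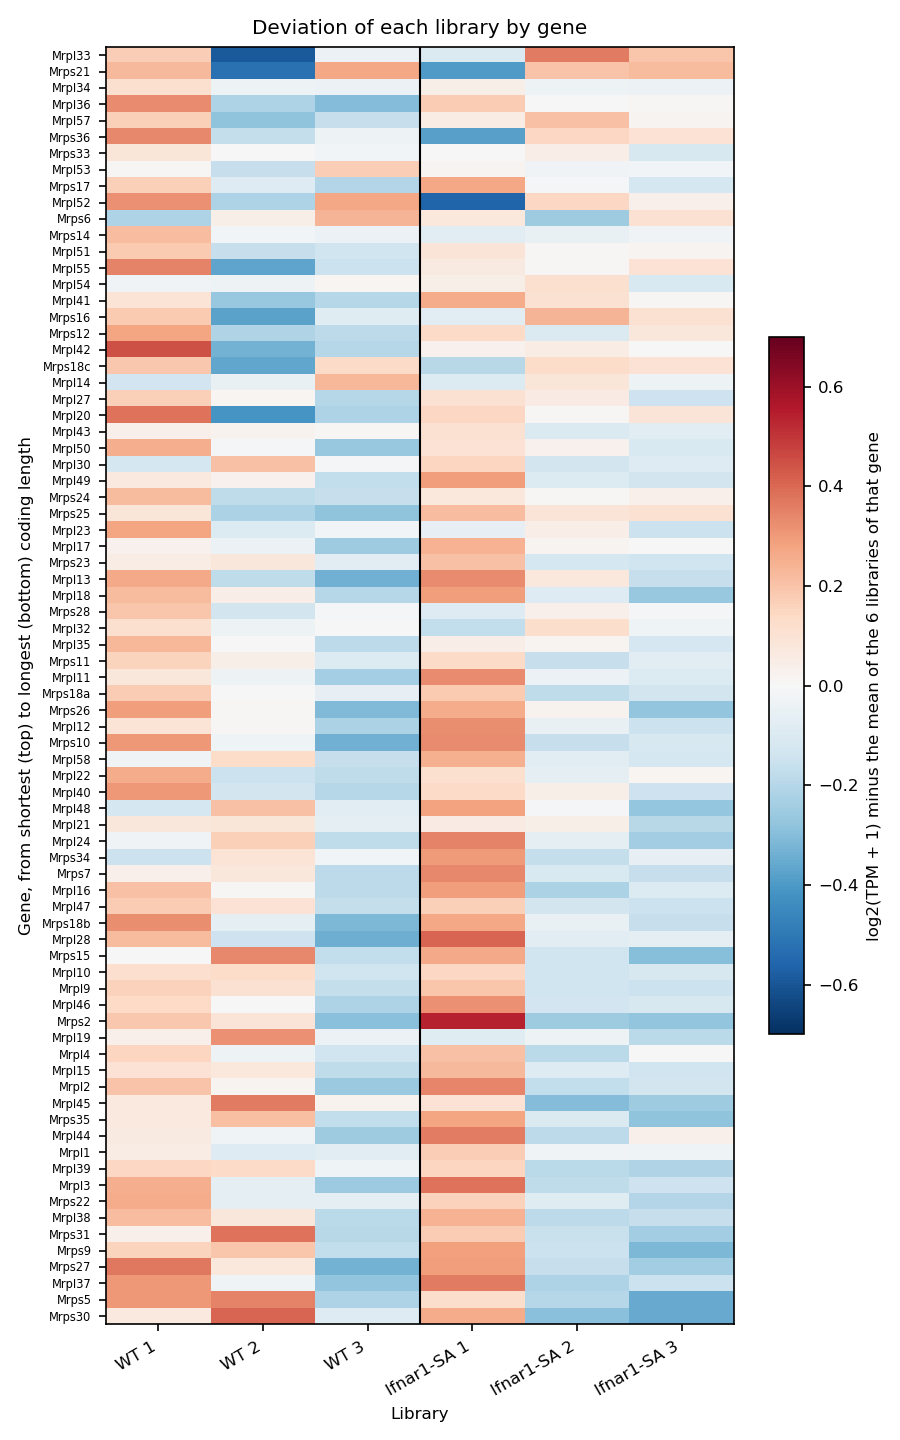
Heat map of the deviation of each member in each library from the member's mean over the 6 libraries, in log2(TPM + 1). Rows are genes from shortest (top) to longest (bottom) coding length, and columns are libraries. Averaged over members, WT 1 and Ifnar1-SA 1 lie highest on this scale, and each genotype holds libraries above and below 0.

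A second contrast set WT 2 and Ifnar1-SA 1 against the other 4 libraries. These were picked because short transcripts were already known to stand apart in them, so low values of short members in them, Mrps21 and Mrpl33 included, restate that choice and are given as a description. This contrast crosses the genotypes, and it is not the one of WT 1 and Ifnar1-SA 1 above. On the TPM scale the 26 members of shortest coding sequence (195 to 480 bases) had a median of −0.07 in it, with 18 of 26 below 0. The middle 26 (498 to 753 bases) had 0.18, with 6 below, and the longest 26 (756 to 1326 bases) had 0.24, with 0 below. All genes tested had a median of 0.25, and the 1017 genes of at most 480 coding bases had −0.08. Across the 78 members the contrast correlated with coding length at a Spearman's rho of 0.75, across 10390 genes at 0.33; these are descriptions over genes that share the same 6 libraries. The side of 0 depended on scaling. With median-of-ratios scaling the medians were −0.46, −0.21 and −0.14 from the shortest to the longest members, with 26, 26 and 22 of 26 below 0. With TMM they were −0.44, −0.18 and −0.12, with 26, 24 and 22 below, and with quantile scaling −0.21, −0.03 and 0.03, with 25, 16 and 8 below. The order from short to long was the same under these 3 scalings, which were applied after seeing the data. The rank correlation with coding length was 0.76, 0.76 and 0.69. Median-of-ratios and TMM scaling apply a single factor to each library, which shifts the contrast of all members almost equally. They could hardly change the order, so only quantile scaling is a check on its dependence on scaling. No scaling can check the order itself, because these libraries were picked for their short transcripts.

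**Figure D4:**
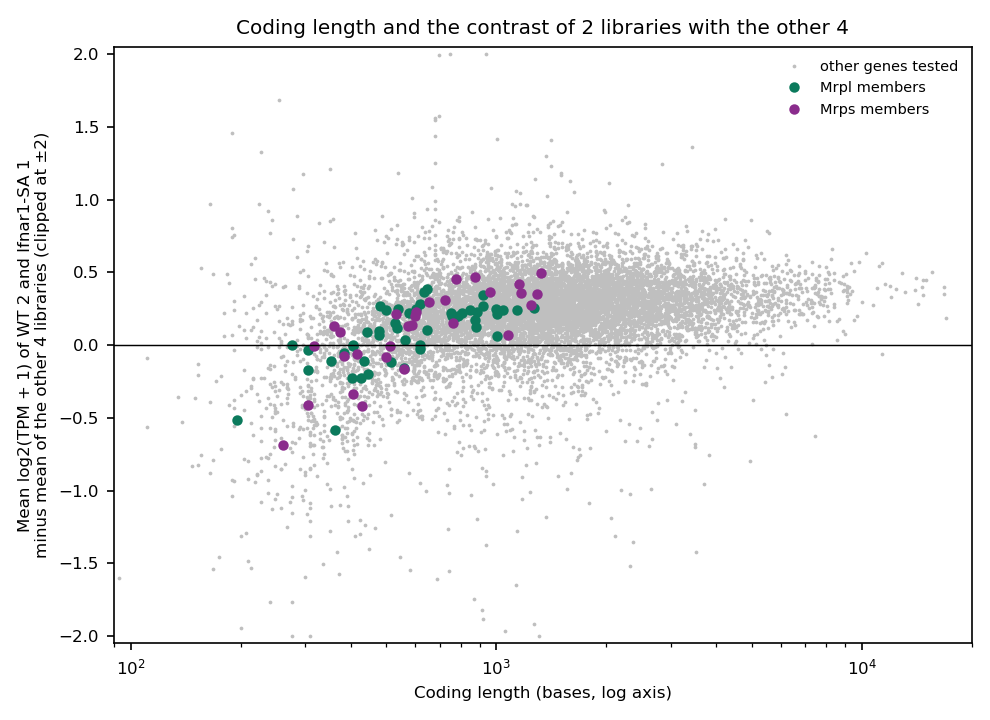
Mean log2 value in WT 2 and Ifnar1-SA 1 minus that in the other 4 libraries, against coding length in bases (log axis), for the 78 members over all genes tested in grey. Members run from −0.69 for Mrps21 to 0.50 for Mrps30 on the TPM scale; the place of 0 depends on scaling.

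Short members did not all behave alike. On the TPM scale the contrast was −0.69 for Mrps21, −0.58 for Mrpl52, −0.52 for Mrpl33, −0.42 for Mrps18c and −0.33 for Mrps16. Other abundant short members lay at or above 0, Mrpl30 (480 coding bases) at 0.27, Mrpl43 at 0.10, Mrps6 at 0.09 and Mrpl54 at 0.0029. Among longer genes it was 0.50 for Mrps30, 0.47 for Mrps2 and 0.45 for Mrps15. With median-of-ratios scaling Mrps21 was at −1.08 and Mrps30 at 0.11, so both kept their signs and stayed apart.

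The genotype comparison was also read with and without these 2 libraries. Without WT 2 and Ifnar1-SA 1, the median difference was −0.067 for Mrpl and −0.117 for Mrps genes, beside −0.082 for all genes, with 2 libraries per genotype. Between Ifnar1-SA 1 and WT 2 alone, 42 of 49 Mrpl and 22 of 29 Mrps genes were higher in Ifnar1-SA 1, with medians of 0.24 and 0.17 beside 0.0019 for all genes. That last comparison is of 1 library with 1 and has no replicate check, and whether the 2 sets of libraries differ was not tested. The median genotype difference over all 6 libraries was 0.021 for the shortest 26 members, 0.024 for the middle 26 and −0.071 for the longest 26.

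Genes that build, regulate and use the mitochondrial ribosome were read from lists in the same fit, and 0 of them passed the adjusted threshold. The 5 ribosome proteins with other symbols had a median of −0.07, with 0 at an unadjusted p under 0.05. Dap3, a small subunit GTPase, stood at 25.5, 34.0 and 23.4 TPM in the WT libraries, against 30.5, 22.2 and 18.9 TPM in Ifnar1-SA, which overlapped (−0.21). The 26 assembly and rRNA processing genes had a median of 0.003 and 0 at an unadjusted p under 0.05. Mettl17, a small subunit assembly factor, had 21.4, 21.4 and 19.1 TPM in the WT libraries, against 18.9, 14.95 and 14.92 TPM in Ifnar1-SA, with all 3 Ifnar1-SA libraries below WT (−0.33; limma unadjusted p 0.0693, adjusted p 0.9997). Ybey, an rRNA-processing nuclease, differed by −0.24.

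The 13 translation factors had a median of −0.05, and 1 of them was below an unadjusted p of 0.05. This was Oxa1l, the inner membrane insertase that docks on the mitochondrial ribosome and receives its products. It stood at 28.5, 35.5 and 32.2 TPM in the WT libraries, against 22.8, 19.1 and 19.9 TPM in Ifnar1-SA, with every Ifnar1-SA library below every WT library. Its difference was −0.61 (SE 0.15, 95% interval −0.98 to −0.25; limma unadjusted p 0.00544), and it did not pass adjustment over all genes (adjusted p 0.957). Mrrf, the ribosome recycling factor, differed by −0.23 and Tufm, the elongation factor that brings aminoacyl-tRNA to the ribosome, by −0.02.

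The 22 genes of aminoacyl-tRNA synthesis had a median of −0.04 and 0 at an unadjusted p under 0.05, with Gatb, of the amidotransferase that makes glutaminyl-tRNA, at 0.25 and Fars2, the phenylalanyl-tRNA synthetase, at 0.18. The 21 genes of mitochondrial transcription and RNA handling had a median of −0.015 and 0 at that p. Among them were 2 subunits of the mitochondrial RNase P that cuts tRNAs from the primary transcript, Hsd17b10 and Trmt10c. Hsd17b10 had 279, 267 and 225 TPM in the WT libraries, against 351, 401 and 282 TPM in Ifnar1-SA, all of the latter higher (0.41; limma unadjusted p 0.0586, adjusted p 0.9997), while Trmt10c, at 15.8 to 18.2 TPM in WT and 13.0 to 14.9 TPM in Ifnar1-SA, had all of the latter lower (−0.30; limma unadjusted p 0.0677, adjusted p 0.9997). In the whole list of 21 genes, libraries did not overlap for 1 gene higher and 2 lower, against 1.97% and 3.8% of all genes tested. Among the 22 genes of aminoacyl-tRNA synthesis, libraries did not overlap for 2 higher, Gatb and Fars2, and 1 lower, Wars2. Tfam, which packages mitochondrial DNA and starts its transcription, differed by −0.01.

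Of the regulators whose letters were searched, Nrf1 stood at 20.3, 22.9 and 14.7 TPM in the WT libraries, against 24.1, 14.7 and 14.7 TPM in Ifnar1-SA, overlapping (−0.12). Gabpa, an ETS factor, stood at 6.43, 6.29 and 5.89 TPM in the WT libraries, against 5.46, 4.47 and 4.74 TPM in Ifnar1-SA, without overlap (−0.29; limma unadjusted p 0.0711, adjusted p 0.9997), and Yy1 differed by −0.26. Myc, known to drive ribosome and mitochondrial gene expression in activated T cells, had 208, 195 and 166 TPM in the WT libraries, against 192, 161 and 145 TPM in Ifnar1-SA, overlapping (−0.20). No library held the coactivators Ppargc1a or Ppargc1b at more than 0.83 TPM. The 7 regulators tested had a median of −0.16 and 0 at an unadjusted p under 0.05.

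The products of the mitochondrial ribosome assemble with nuclear-encoded subunits, and its cytosolic counterpart makes all the proteins named here. The 81 cytosolic ribosomal protein genes had a median difference of −0.05. Of these, 1 was higher and 0 lower at a limma unadjusted p under 0.05, and 52 intervals (64.2%) lay inside 1.5-fold. The 80 oxidative phosphorylation genes tested had a median of 0.012, with 0 higher and 1 lower at that p and 37 intervals (46.25%) inside 1.5-fold. Of all genes tested, 1.44% were higher and 1.68% lower at that p. Intervals inside 1.5-fold were 43.5% for all genes and 73.1% for the 78 members. Across libraries, summed cytosolic ribosomal protein levels were 160131, 153784 and 192879 TPM in the WT libraries, against 140696, 180762 and 168325 TPM in Ifnar1-SA. The lowest of these within each genotype were WT 2 and Ifnar1-SA 1. Summed over the 83 oxidative phosphorylation genes listed, levels were 49285, 32094 and 44138 TPM in the WT libraries, against 35383, 45389.5 and 44825 TPM in Ifnar1-SA. WT 2 and Ifnar1-SA 1 were again the lowest of their genotypes. WT 2 was also the lowest WT library for the Mrps sum, and nearly level with WT 3 for the Mrpl sum (4711 and 4713 TPM). By mean log2 value WT 3 was the lowest WT library for both lists, and it was the lowest for 53 of 78 members. Ifnar1-SA 1 was the highest Ifnar1-SA library for both sums on the same TPM scale.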

How the data were processed

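The 6 messenger RNA libraries from mouse cells, 3 WT and 3 Ifnar1-SA, were grouped by the genotype in the labels. The deposited table gives TPM per gene, made by the authors with Salmon on mm10/GRCm38 according to the submitters' processing notes. The sources used here do not give its version, annotation, read filters or strand setting. TPM holds no read counts, so depth and counting error are unknown and no count model was used. TPM is a share, so abundant genes lower the rest.

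Here log2(TPM + 1) was tested with limma 3.58.1 (R 4.3.3; intensity trend, two-sided, no replicate block) in 12141 genes, those averaging 1 TPM or more over the 6 libraries, with Benjamini-Hochberg adjustment over those genes and a threshold of 0.05. Fold changes on this scale understate those of low genes. For 3 against 3 libraries an exact permutation test cannot go below 0.1, so none was used for single values. The fit was tested on simulated data of 12141 genes with 200 changed: at this design 37.6% of 2-fold changes were found and 86.2% of 4-fold changes, with 5.13% of calls false. Changes were placed only in genes above a minimum level, with normal errors drawn independently for each gene. Shifts that many genes of a library share were not simulated, so these rates may not hold for the real libraries.

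Gene positions, coding lengths and overlaps came from GENCODE M21 (GRCm38), matched by symbol, and promoters from RefSeq (GRCm38.p6); Mrpl13, Mrpl19, Mrps34, Mrpl54, Mrpl38, Mrpl4, Mrps28, Mrpl15 and Mrps35 had no promoter entry. Protein sequences were not used here. Members and lists were chosen with earlier results of these data known, and the cytosolic ribosomal protein list was corrected to take in all Rpl genes after the table was read. Genes were named by rule: the 8 of lowest p, the 2 highest and the 2 lowest in level per subunit, landmarks by role, and the 2 of lowest p per pathway list. Members named for promoters, overlaps or length were chosen for those features, and Mrps2, Mrpl30, Mrpl43 and Mrpl54 for their values.

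Whether replicate numbers pair the libraries was checked from the correlation of deviations from the genotype means. Same-numbered libraries gave −0.11, −0.11 and 0.15, so the numbers were not taken as pairs. Alternatives were other pseudocounts, filters, scalings (median of ratios, TMM written out in R, quantile) and limma settings, a replicate block, and leaving out libraries.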

Additional observations from a re-analysis of the deposited data

How the results depend on the processing

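Of 49 Mrpl and 29 Mrps genes, 0 passed the adjusted threshold under any alternative run, where the lowest adjusted p of a member was 0.452. Differences of single members stayed between −0.47 and 0.47. The count over all genes moved from 7 to 14 and 15 with pseudocounts of 0.5 and 0.1, to 0 without a filter, to 1 with a mean of at least 5 TPM, to 12 with robust empirical Bayes and 12 with array weights, to 20 without WT 2 and Ifnar1-SA 1 together, and to between 14 and 28 without single libraries. With a replicate block it was 0; in this balanced design a block cannot move the members' differences. The causes were not tested.

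The Mrpl median of 0.016 ranged from −0.060 to 0.093 without single libraries and from −0.067 to 0.14 over all alternatives, and the Mrps median of −0.040 from −0.12 to 0.047 without single libraries. With median-of-ratios and TMM scaling the medians were 0.12 and 0.14 for Mrpl and 0.064 and 0.083 for Mrps, so the sign of the Mrps median turned, while the median of all genes went from −0.056 to 0.034 and 0.051. Relative to all genes, the medians ranged from −0.004 to 0.16 for Mrpl and from −0.035 to 0.11 for Mrps, so neither direction is firm. Of 680 recomputed differences of 34 named members, 63 changed sign, and only 12 of the 34 members had no changed sign. Other filters, no intensity trend, robust empirical Bayes, the block and a term for WT 2 and Ifnar1-SA 1 cannot move a difference. The 680 values include those runs, which could not change a sign. An unadjusted p under 0.05 was reached by Mrps25 with quantile scaling, with array weights and without WT 1, by Mrpl45 with array weights, without Ifnar1-SA 1, without that library and WT 2 together and with a term for that pair, by Mrpl17 with quantile scaling, by Mrpl20 without WT 1 and by Mrpl52 with the pair term. Depth is unknown and limits what these values can resolve in low genes.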
